A study of Mus musculus with 87 samples.

Results

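A set of 10 p53 target genes was followed through every library of the series: Cdkn1a, Trp53inp1, Bbc3, Mdm2, Ccng1, Bax, Phlda3, Sesn2, Perp and Zmat3. They were taken by symbol, 10 of the 25277 genes counted, and all 10 were present in each of the 10 count tables. The study sequenced RNA from 87 mouse samples in 31 groups, 15 of which are controls. The haploid cells are the AG-haESC line, androgenetic haploid embryonic stem cells, labelled Dnmt WT (3 libraries), Dnmt TKO (3) and Dnmt STOP (2). The embryos are labelled pWT or pIR: 2C embryos (4 and 4), morulae (3 and 4) and blastocysts (4 and 4). At E18.5, an embryonic day in late gestation, batch 1 holds brain, heart, kidney, liver and lung of pWT and pTKO animals (2 and 2 per tissue). Batch 2 of E18.5 holds heart and liver of pWT and pIR animals (4 and 4). At postnatal day 1 (P1) there are heart, kidney, liver and lung of pWT (3) and pIR (2) animals. The meaning of pIR, STOP and the prefix p, the strain and sex of the animals and any pooling of embryos are not given in the sources used here. The haploid libraries come from 1 named line, and where nothing says that replicates were separate cultures or animals, p-values measure the spread between these libraries, which may be technical.

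The p53 protein is a transcription factor that is held low by the ubiquitin ligase Mdm2 and released when DNA is damaged or the cell is otherwise stressed. It then binds paired decamers in DNA near its target genes and raises their transcription. Some targets stop the cell cycle, some open mitochondria and kill the cell, and others feed back on p53 itself, and embryonic stem cells are known to be sensitive to p53 activity.

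The 250 bases before the start of 4 of the genes are printed because they hold the p53 decamer, the consensus unit of 10 bases of which p53 binds a pair. Sequences are from RefSeq on GRCm38.p6, written 5′ to 3′ on the gene's strand, with each decamer in capitals: Cdkn1a at chr17:29090729-29090978 (plus strand), Mdm2 at chr10:117710759-117711008 (minus strand), Ccng1 at chr11:40755287-40755536 (minus strand) and Bax at chr7:45466899-45467148 (minus strand).
Cdkn1a: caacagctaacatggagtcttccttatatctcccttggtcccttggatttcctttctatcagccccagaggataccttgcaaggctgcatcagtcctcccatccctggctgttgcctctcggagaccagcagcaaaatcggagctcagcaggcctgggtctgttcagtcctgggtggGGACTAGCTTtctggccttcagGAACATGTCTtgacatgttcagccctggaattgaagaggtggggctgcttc
Mdm2: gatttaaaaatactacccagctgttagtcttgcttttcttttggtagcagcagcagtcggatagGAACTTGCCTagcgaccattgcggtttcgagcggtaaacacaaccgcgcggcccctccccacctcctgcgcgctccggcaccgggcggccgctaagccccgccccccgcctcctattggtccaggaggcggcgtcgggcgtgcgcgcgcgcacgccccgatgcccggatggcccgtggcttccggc
Ccng1: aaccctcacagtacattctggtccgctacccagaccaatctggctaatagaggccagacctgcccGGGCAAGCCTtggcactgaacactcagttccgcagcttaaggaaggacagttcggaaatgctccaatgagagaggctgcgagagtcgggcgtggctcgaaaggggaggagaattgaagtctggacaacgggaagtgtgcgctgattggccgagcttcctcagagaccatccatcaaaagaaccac
Bax: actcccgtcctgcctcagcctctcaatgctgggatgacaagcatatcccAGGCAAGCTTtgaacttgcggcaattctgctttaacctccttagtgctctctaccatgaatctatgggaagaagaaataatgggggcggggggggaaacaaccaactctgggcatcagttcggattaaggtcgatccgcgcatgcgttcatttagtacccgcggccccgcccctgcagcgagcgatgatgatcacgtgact
The Cdkn1a sequence holds 2 decamers, whose first bases lie at -73 and -51 from the start. They are near enough to each other (at most 13 bases between them) to count as a full element by this rule. The 10 bases directly after the second decamer, tgacatgttc, miss the consensus at their first base only and are not marked. Mdm2 has 1 decamer at -186 and Bax 1 at -201, and Ccng1 has 1. The RefSeq table matched 7 of the 10 genes with 10 promoters in all, and Trp53inp1, Perp and Zmat3 are named only. No decamer was present in these windows of the other Cdkn1a promoter, the 3 Bbc3 promoters, Phlda3 or Sesn2. Among all 32851 listed promoters, 2341 (7.13%) held a decamer and 21 (0.06%) a full element. The decamer reads the same on both strands by its consensus, both strands were searched, and a match is a description of the letters and not a bound site.

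All 10 genes are protein coding in GENCODE M21 (mm10), and none overlaps another counted gene. Cdkn1a lies at 17:29090976-29100727, Trp53inp1 at 4:11156431-11174379, Bbc3 at 7:16308393-16318205, Mdm2 at 10:117688875-117710758 and Ccng1 at 11:40748552-40755311. Bax lies at 7:45461697-45466898, Phlda3 at 1:135766119-135769136, Sesn2 at 4:132492032-132510501, Perp at 10:18845020-18857073 and Zmat3 at 3:32334792-32366014.

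Library totals ran from 6136789 to 37396693 counts, lowest in the embryos (6136789 to 24005031) and from 16777664 to 24451566 in the haploid cells. Levels are in CPM, a gene's counts scaled to its library's total count. On library totals alone the median gene differed by more than 0.1 on the log2 scale in some comparisons, while with TMM scaling, used for every fold change, it lay between -0.07 and 0.03. Those on library totals were STOP (0.11), morulae (-0.16), blastocysts (-0.26), E18.5 pTKO liver (0.11) and P1 liver (-0.37). The genes named in the Dnmt labels were read first. Dnmt1 was at 418 to 425 CPM in WT, 68.8 to 74.0 in TKO and 572 to 601 in STOP. Dnmt3a (10.5 to 11.9 CPM) and Dnmt3b (21.8 to 26.9) were also lowest in TKO, against at least 54.9 and 122 in the other haploid libraries. Summed pluripotency markers (Pou5f1, Nanog, Sox2, Zfp42, Esrrb) were at 2853 to 3768 CPM in the haploid libraries, and summed markers of brain, heart, liver and lung were present in each tissue so labelled. Several libraries stood apart, and calls that changed without them are given beside the results. They are the haploid TKO 1 and TKO 3, morula pIR 1, and in E18.5 batch 1 both pWT hearts, kidney pWT 2, liver pWT 2 and lung pTKO 1.

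In the haploid cells, the cell cycle inhibitor Cdkn1a, the stress proteins Trp53inp1 and Zmat3 and the killer protein Bbc3 rose in both Dnmt genotypes. Of the 10 genes, 4 rose and 0 fell in TKO against WT, where 14.6% of all genes tested were called and 9.83% were called higher. In STOP against WT 4 of the 10 rose, again Cdkn1a, Trp53inp1, Bbc3 and Zmat3, and 0 fell, where 23.1% of all genes were called and 13.8% were called higher. Both comparisons share the 3 WT libraries. A call is an adjusted p under 0.05 in edgeR's quasi-likelihood test over all genes, and fold changes are on the TMM scale with their standard error (SE).

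Cdkn1a encodes p21, which blocks cyclin-dependent kinases. It was at 114, 128 and 101.3 CPM in the WT libraries, 185.2, 253 and 197 in TKO, and 222 and 221 in STOP. Every TKO and STOP library lay above every WT library. The means were 115 ± 13.3 (SD, n = 3) in WT, 212 ± 36.0 (n = 3) in TKO and 222 ± 0.308 (n = 2) in STOP. The log2 fold change was 0.84 ± 0.13 (SE) in TKO, a fold of 1.79 (adjusted p = 0.00547, edgeR). In STOP it was 0.85 ± 0.14 (adjusted p = 0.00762, edgeR). The STOP call was lost without STOP 1 (adjusted p = 0.056, edgeR) or STOP 2 (0.073), where the lone STOP library is assumed to vary like the other groups.

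Trp53inp1 encodes a nuclear protein that p53 induces and that promotes arrest and death. It was at 248.7, 230 and 204 CPM in WT, 435, 429 and 498 in TKO, and 470 and 483 in STOP. The groups did not overlap, and the lowest mutant library was well above the highest WT one. The log2 fold change was 0.96 ± 0.11 in TKO (adjusted p = 0.00206, edgeR) and 0.97 ± 0.12 in STOP (adjusted p = 0.00331, edgeR). This gene kept its call in both comparisons with any 1 library left out, with adjusted p up to 0.0192 in TKO and 0.0478 in STOP (edgeR).

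Bbc3 encodes PUMA, which neutralises the protective members of the Bcl2 family. It was the lowest of the 10 genes in the WT cells, at 5.07, 3.40 and 2.95 CPM, against 10.4, 9.60 and 11.0 in TKO and 9.06 and 8.63 in STOP. Again no mutant library reached down to the WT range. Bbc3 had the largest fold change among the 10 in both genotypes, 1.40 ± 0.23 on the log2 scale in TKO (adjusted p = 0.00618, edgeR) and 1.12 ± 0.25 in STOP (adjusted p = 0.0174, edgeR). The STOP call was lost without STOP 1, STOP 2, WT 2 or WT 3 (adjusted p = 0.0942, 0.114, 0.0609 and 0.0732, edgeR).

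Zmat3 encodes an RNA-binding zinc finger protein that acts on splicing. It was at 105, 116 and 104 CPM in WT, 203, 162 and 142 in TKO, and 167 and 182 in STOP. All mutant libraries were above the WT ones, and TKO 1 was the highest. The log2 fold change was 0.59 ± 0.11 in TKO (adjusted p = 0.00927, edgeR) and 0.59 ± 0.12 in STOP (adjusted p = 0.0128, edgeR). The TKO call was lost without WT 1 (adjusted p = 0.0537, edgeR) or WT 3 (0.0569), and the STOP call without STOP 1, STOP 2, WT 1 or WT 3 (0.0644, 0.125, 0.0569 and 0.0621).

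The feedback genes did not pass edgeR's test in either genotype with all libraries. Mdm2, the ligase that degrades p53, was at 111, 100 and 98.4 CPM in WT, 130, 139 and 198 in TKO and 147 and 163 in STOP. Its groups did not overlap, yet TKO 3 stood above the other TKO libraries, and the log2 fold change of 0.56 ± 0.18 gave an adjusted p of 0.0654 in TKO and 0.48 ± 0.20 gave 0.097 in STOP (edgeR). The Mdm2 result in TKO depended on the setting: it was called without TKO 3 (0.29, adjusted p = 0.0123, edgeR), without TKO 1 (0.69, adjusted p = 0.0276), with no filter on low counts (adjusted p = 0.0463) and with DESeq2 (adjusted p = 0.0261). Ccng1, a cyclin that binds the phosphatase acting on Mdm2, was at 232, 210 and 194 CPM in WT, 228, 303 and 349 in TKO and 297 and 310 in STOP. TKO 1 fell within the WT range, and the log2 fold changes were 0.43 ± 0.17 and 0.42 ± 0.18 (adjusted p = 0.106 and 0.119, edgeR). Phlda3, which restrains the kinase Akt, was at 18.48, 17.1 and 15.3 CPM in WT, 15.8, 20.3 and 33.9 in TKO and 20.3 and 20.1 in STOP (log2 fold changes 0.44 ± 0.28 and 0.15 ± 0.31).

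Bax, which forms the pore in the mitochondrial membrane, was at 72.8, 61.2 and 62.3 CPM in WT, 66.7, 64.9 and 70.6 in TKO and 69.3 and 61.2 in STOP. Its log2 fold changes were 0.00 ± 0.11 and -0.10 ± 0.12. Sesn2, a stress protein that restrains mTORC1, was at 58.8, 62.5 and 55.1 CPM in WT, 69.7, 67.8 and 74.8 in TKO and 62.3 and 59.8 in STOP, with 0.22 ± 0.10 and -0.04 ± 0.11 on the log2 scale. Perp, a membrane protein of desmosomes that also acts in cell death, was at 5.66, 4.95 and 4.57 CPM in WT, 6.31, 8.17 and 11.2 in TKO and 6.10 and 8.08 in STOP. Its log2 fold changes were 0.73 ± 0.26 and 0.39 ± 0.29 (adjusted p = 0.0941 and 0.342, edgeR).

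**Figure D1:**
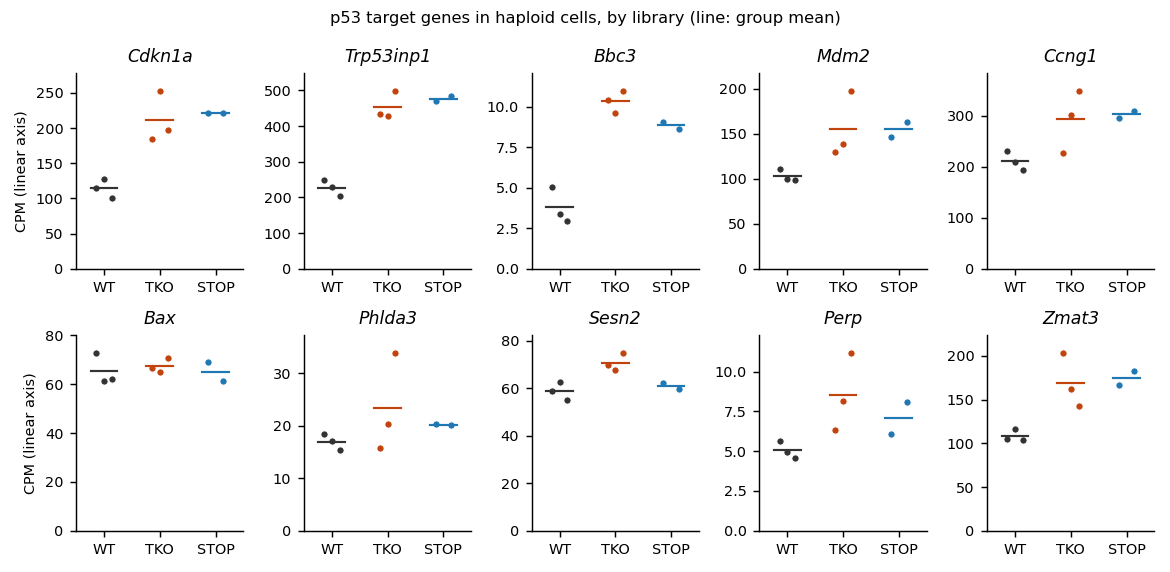
CPM of each of the 10 genes in the haploid cells on linear axes from 0, one point per library and a line at the mean of WT (n = 3), TKO (n = 3) and STOP (n = 2). Cdkn1a, Trp53inp1, Bbc3, Mdm2, Zmat3 and Perp have every TKO and STOP point above every WT point, while the Bax points of the 3 groups overlap.

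Among the members 7 of 10 had every TKO library above every WT library, against 19.1% of all genes, and 8 of 10 did so in STOP, against 42.9%. The median log2 fold change of the 10 was 0.57 in TKO and 0.45 in STOP, beside 0.01 and 0.01 over all genes tested. The TKO libraries differed among themselves: TKO 3 was the highest of the group in 8 of the 10 genes and TKO 1 the lowest in 5. Without TKO 1, 7 genes were called, beside 1545 of all genes (10.4%), with Mdm2 (adjusted p = 0.0276, edgeR), Ccng1 (0.0112) and Perp (0.0397) added. Without TKO 3, 5 were called, beside 6968 of all genes (46.8%). Among the WT libraries, WT 3 was the lowest in 9 of the 10 genes. The median gene on X was shifted by -0.78, -0.50 and -0.01 on the log2 scale in TKO 1, TKO 2 and TKO 3. In STOP 1 and STOP 2 it was at -0.55 and -0.44, beside 0 in each WT library. The WT libraries were at 0 on every chromosome, as were the pWT morulae, so these zeros do not measure the spread among WT libraries. None of the 10 genes lies on X, and the part of this shift in the levels was not tested.

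TKO and STOP cells were also compared with each other, where 0 of the 10 genes passed the test and 0.0401% of all genes did (edgeR). At an unadjusted p of 0.05 there were 439 of all genes, Sesn2 the one member among them, and DESeq2 called 0 members. Log2 differences, STOP minus TKO, ran from -0.34 to 0.01 with SE between 0.11 and 0.31.

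Markers of another lineage moved with these groups. Summed trophectoderm markers (Cdx2, Gata3, Krt8, Krt18, Tfap2c) were at 56.6 to 62.3 CPM in WT, 106 to 141 in TKO and 126 to 145 in STOP, with none of the 5 at 0 throughout a group. Summed primitive endoderm markers were at 2.61 to 3.44, 4.09 to 4.51 and 5.20 to 5.46 CPM. Their part in the results was not tested. In bulk RNA, fewer cells of a type and less RNA per cell cannot be told apart.

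Genes around the 10 were read from lists of the same pathway. Of 30 other p53 targets, 29 were tested in the haploid cells, and 6 rose and 2 fell in TKO against 7 and 1 in STOP. Over all genes 14.6% were called in TKO and 23.1% in STOP. With 1 library left out, the number of these targets called ran from 0 to 15 in TKO, beside 3.85 to 46.8% of all genes. In STOP fewer of them were called whenever 1 library was left out. Polk, a DNA polymerase that copies past damage, was at 41.0 ± 1.88 CPM (SD, n = 3) in TKO, 50.4 ± 8.98 (n = 2) in STOP and 26.5 ± 1.57 (n = 3) in WT. It rose in TKO (log2 fold change 0.59, adjusted p = 0.0134) and in STOP (0.83, adjusted p = 0.00586, edgeR). The TKO call was lost without TKO 2, WT 2 or WT 3 (adjusted p up to 0.0713, edgeR) and the STOP call without STOP 2 (0.0735). Sesn1, the sestrin related to Sesn2, fell from 42.0 ± 1.26 to 31.9 ± 2.27 CPM in TKO (log2 fold change -0.44, adjusted p = 0.0254, edgeR). That call was lost without TKO 2 or any 1 of the WT libraries (adjusted p up to 0.0999, edgeR).

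Of 18 p53 regulators, 4 rose in TKO and 5 in STOP, and 0 fell, beside 14.6% and 23.1% of all genes called. Trp53, which encodes p53, was at 47.6 ± 2.99 CPM in WT, 76.6 ± 5.12 in TKO and 74.5 ± 1.32 in STOP. It rose by 0.64 on the log2 scale in TKO (adjusted p = 0.00263, edgeR), a call kept with any 1 library left out (adjusted p up to 0.0255). In STOP it rose by 0.55 (adjusted p = 0.00664, edgeR), a call lost without STOP 1 or STOP 2 (up to 0.0691). Mdm4, the partner of Mdm2 that binds p53, was at 282 ± 10.9 CPM in WT, 513 ± 127 in TKO and 595 ± 33.4 in STOP. It rose by 0.80 (adjusted p = 0.00645) and 0.98 (adjusted p = 0.00544, edgeR), and the STOP call was lost without STOP 2 (0.0696).

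Of the Bcl2 family, 10 of 13 genes were tested, 1 rose in TKO, and 2 rose and 1 fell in STOP. These counts stand beside 14.6% and 23.1% of all genes called in TKO and STOP. The one that rose in both was Bcl2l11 (Bim, another killer protein), from 9.74 ± 1.71 CPM in WT to 21.1 ± 4.38 in TKO and 24.7 ± 3.25 in STOP. The adjusted p was 0.00828 in TKO, and up to 0.0497 with 1 library left out, and 0.00702 in STOP, lost without STOP 2 (0.0851, edgeR). Of 24 cell cycle genes that are lowered through p21, 0 rose and 2 fell in TKO, and 1 rose and 7 fell in STOP. The same shares of all genes stand beside these counts. Cdc20, which activates the anaphase-promoting complex, fell from 482 ± 14.6 to 360 ± 38.5 CPM in TKO and 348 ± 29.8 in STOP (adjusted p = 0.0311 and 0.0199, edgeR). Both Cdc20 calls were lost with most single libraries left out (adjusted p up to 0.125 in TKO and 0.172 in STOP). The one library whose removal kept the TKO call was TKO 3, and no removal kept the STOP call.

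In the embryos 0 of the 10 genes passed the test at any of the 3 stages, and several libraries were far from the others of their group. All 3 comparisons rest on matching 11 columns named O48 to the pWT embryos by elimination. At the 2C stage 7 of the 10 were tested, and 0% of all genes were called (edgeR). At an unadjusted p of 0.05, 235 of all genes and 0 of the members were under the threshold, and DESeq2 called 0 members. Cdkn1a was at 74.8, 99.4, 32.5 and 43.5 CPM in pWT and 98.2, 233, 57.8 and 102 in pIR, where pIR 2 stood highest (log2 fold change 0.92 ± 0.50). Trp53inp1 was at 165, 339, 339 and 381 CPM in pWT and 128, 196, 223 and 188 in pIR (-0.80 ± 0.37). Both ranges overlapped, and no adjusted p was under 0.999 (edgeR).

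Bbc3, Phlda3 and Zmat3 were too low to be tested in 2C embryos. Bbc3 and Phlda3 were not detected in any of the 4 pIR libraries, which allows up to 0.397 to 0.489 CPM (3 counts per library, counting error only). They were also near 0 in pWT: Bbc3 was at 2.29 CPM in pWT 3 and 0 to 0.335 in the others. Phlda3 was at 0.735 CPM in pWT 1 and 0 in the others. The pIR libraries were shallower (6136789 to 7548315 counts) than the pWT ones (10889204 to 24005031), so depth and genotype cannot be told apart here. Zmat3 was at 0, 14.02, 0 and 0 CPM in pWT and 1.35, 0, 0 and 3.50 in pIR. Perp was at 10.8, 7.71, 0 and 7.41 CPM in pWT and 0.135, 3.31, 2.28 and 0 in pIR.

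In morulae 0 of the 10 genes were called, beside 0.136% of all genes. Over all genes, 1467 were under an unadjusted p of 0.05, with Bbc3 and Phlda3 among the members, and DESeq2 called Phlda3 (adjusted p = 0.0296). Phlda3 was at 4.68, 5.18 and 3.53 CPM in pWT and 37.4, 10.4, 9.70 and 11.4 in pIR. All pIR libraries were above the pWT ones, and pIR 1 stood apart (log2 fold change 2.099 ± 0.62, adjusted p = 0.221, edgeR, and 1.39, adjusted p = 0.463, without pIR 1). Bbc3 was at 1.43, 1.30 and 3.53 CPM in pWT and 0.294, 0.0815, 0.0674 and 0 in pIR, from 5 counts or fewer in each pIR library (adjusted p = 0.329, edgeR).

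Morula pIR 1 was the highest of its group in 9 of the 10 genes. Its Trp53inp1 level was 153 CPM against 19.9, 37.9 and 34.6 in the other pIR morulae and 27.4, 51.1 and 32.2 in pWT. The log2 fold change of Trp53inp1 was 0.88 ± 0.60 with it and -0.11 without it (both not called, edgeR). Its Cdkn1a level was 346 CPM against 140, 63.9 and 114, but pWT 2 reached 402 beside 82.0 and 81.7. In this library the median gene on chromosome 5 was shifted by -0.90 on the log2 scale and on X by 0.45, and none of the 10 genes lies on either. The part of these shifts in the levels was not tested.

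In blastocysts 0 of the 10 genes were called, beside 10.6% of all genes (edgeR). Bax and Trp53inp1 were under an unadjusted p of 0.05, and DESeq2 called both. Trp53inp1 was at 93.2, 75.6, 55.0 and 90.8 CPM in pWT and 43.5, 36.7, 29.7 and 63.2 in pIR, with only pIR 4 within the pWT range. The log2 fold change was -0.68 ± 0.23 (adjusted p = 0.0703, edgeR), and without pIR 4 it was -0.89 (adjusted p = 0.0288). Chromosome 4, where Trp53inp1 and Sesn2 lie, was lower in all 4 pIR blastocysts, its median gene shifted by -0.32, -0.52, -0.41 and -0.40. It also varied among the pWT blastocysts, as between pWT 1 (-0.21) and pWT 2 (0.26). With the median of each chromosome taken out, Trp53inp1 was at -0.36 (adjusted p = 0.402, edgeR).

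Bax was at 124, 150, 154 and 173 CPM in pWT blastocysts and 169, 190, 273 and 171 in pIR. Only pWT 4 overlapped the pIR range, and the log2 fold change was 0.62 ± 0.21 (adjusted p = 0.0673, edgeR). Without pIR 1 it was 0.72 (adjusted p = 0.042), with chromosome medians taken out 0.70 (adjusted p = 0.0495), and with the trend on transcript length taken out 0.28 (adjusted p = 0.366, edgeR). Long transcripts were lower against short ones in the pIR blastocysts (-0.55 to -0.05 on the log2 scale) than in pWT (0.07 to 0.31). The other 8 genes had log2 fold changes from -1.39 for Bbc3 to 0.61 for Phlda3, with adjusted p of 0.203 or more (edgeR). In an interaction test of the pIR effect between blastocysts and morulae, 0 of the 10 genes passed (adjusted p of at least 0.588, edgeR), beside 0% of all genes. There, 1101 of all genes had an unadjusted p under 0.05, with Trp53inp1 and Phlda3 among the members, and DESeq2 called 0 members.

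**Figure D2:**
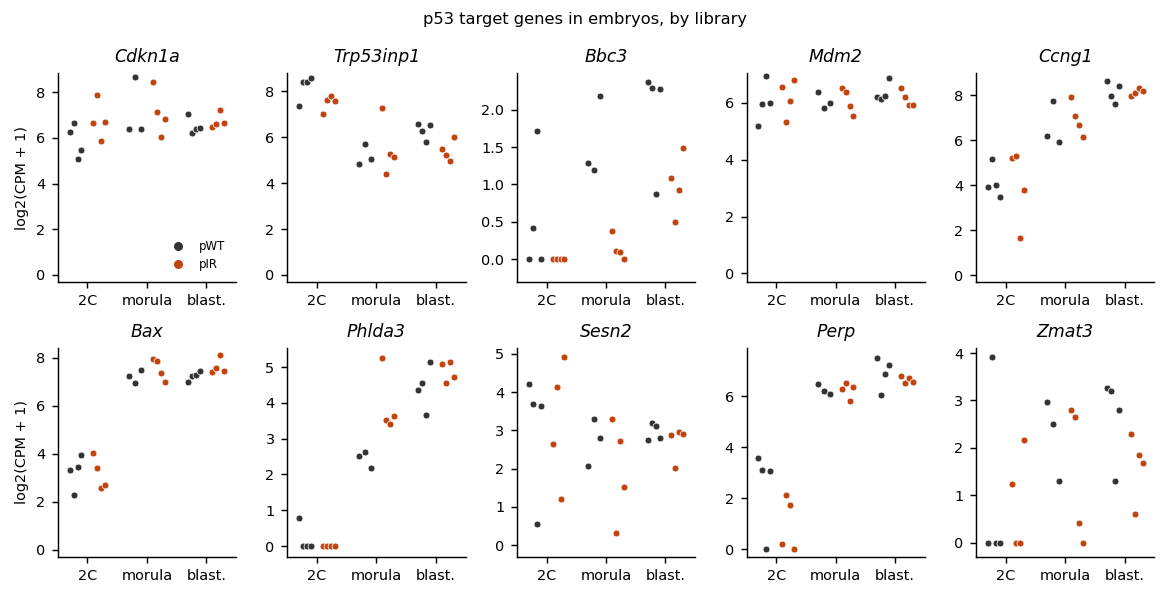
Levels of the 10 genes in 2C embryos, morulae and blastocysts as log2(CPM + 1), one point per library, pWT beside pIR. The morula point far above its group in Phlda3 and Trp53inp1 is pIR 1, at 37.4 and 153 CPM.

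Around the members in blastocysts, 2 of 25 tested other targets rose and 1 fell, 1 of 10 tested Bcl2 family genes fell, and 0 of 17 regulators were called. Over all genes 10.6% were called. With 1 library left out, 0 to 3 of the other targets were called, beside 1.85 to 12.3% of all genes. Of 24 cell cycle genes 3 rose (Ccnb2, Birc5 and Aurka) and 0 fell, and each of these calls was lost without any 1 of 4 or 5 of the 8 libraries (adjusted p up to 0.121, edgeR). Mcl1, which protects cells from Bax, was at 218 ± 33.5 CPM (SD, n = 4) in pWT and 94.0 ± 13.6 (n = 4) in pIR (log2 fold change -1.02, adjusted p = 0.00808, edgeR). The Mcl1 call was kept with any 1 library left out (adjusted p up to 0.034, edgeR), but not with all 3 stages in the fit. At the 2C and morula stages 0 genes of the 4 lists were called.

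Across the stages of the pWT embryos, 5 of the 10 genes changed from 2C embryos to morulae, beside 42.5% of all genes. Trp53inp1 fell by 3.59 on the log2 scale (SE 0.43, adjusted p = 8.54e-05, edgeR), from 306 ± 95.95 CPM (SD, n = 4) to 36.9 ± 12.5 (n = 3). Bax rose by 3.46 ± 0.46 (adjusted p = 0.000173, edgeR), from 9.32 ± 4.39 to 150 ± 27.8 CPM. Ccng1 rose by 2.15 ± 0.53, Perp by 3.07 ± 1.07 and Phlda3 by 4.27 ± 1.53 (adjusted p = 0.00713, 0.0362 and 0.0414, edgeR). From morulae to blastocysts 0 of the 10 were called, beside 2.58% of all genes, with Cdkn1a alone under an unadjusted p of 0.05 (0.0385) and 0 called by DESeq2. The labels do not say whether the stages shared a library kit.

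At E18.5, pTKO tissues of batch 1 gave calls among the 10 in heart and brain only, and the batch 1 pWT hearts stood apart from the pWT hearts of batch 2. In heart 2 genes rose and 2 fell, beside 26.8% of all genes called (edgeR). Trp53inp1 was at 6.48 and 2.47 CPM in pWT and 24.998 and 23.97 in pTKO, with no overlap. For the E18.5 pTKO and P1 tissues the share of all genes without overlap is not given, so no weight is put on such separation. For Trp53inp1 in heart the test gave a call. The log2 fold change was 2.35 ± 0.50 (adjusted p = 0.0331, edgeR). Mdm2 was at 41.5 and 41.6 CPM in pWT and 63.3 and 60.3 in pTKO (0.49 ± 0.11, adjusted p = 0.0352). Sesn2 was at 11.6 and 12.7 CPM in pWT and 7.77 and 6.01 in pTKO (-0.90 ± 0.22, adjusted p = 0.0441), and Bax at 56.2 and 50.8 against 41.3 and 38.0 (-0.52 ± 0.13, adjusted p = 0.04999, edgeR).

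The pWT hearts of batch 1 stood apart from those of batch 2. Ccng1 was at 107 and 55.3 CPM in batch 1 pWT and 256 and 187 in pTKO (1.35 ± 0.38, adjusted p = 0.058, edgeR), but at 231, 361, 320 and 352 in batch 2 pWT. Trp53inp1 was at 42.2, 38.3, 25.6 and 38.2 CPM in batch 2 pWT, so the pTKO hearts lay nearer to batch 2 pWT than the batch 1 pWT hearts did. Long transcripts were lower against short ones in batch 1 pWT hearts (-1.14 and -0.99 on the log2 scale) than in pTKO (-0.29 and -0.25) or in batch 2 pWT (0.03 to 0.08). With that length trend taken out, Trp53inp1 (2.23, adjusted p = 0.0438) and Mdm2 (0.51, adjusted p = 0.0355) were still called, and Bax (0.275) and Sesn2 (0.0587, edgeR) were not. With all tissues in one fit, Trp53inp1 (adjusted p = 0.082), Mdm2 (0.26) and Bax (0.0938) lost their calls and Sesn2 kept its call (0.029, edgeR). Without pTKO 1 or pTKO 2, 0 genes of the whole table were called, and without pWT 1 or pWT 2 the call of Sesn2 was lost (adjusted p = 0.0505 and 0.0524, edgeR).

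Among the other lists in pTKO heart, 3 of 29 targets rose and 0 fell, and 4 of 17 regulators rose and 1 fell. The list counts here stand beside 26.8% of all genes called. Mdm4 was at 145 ± 2.31 CPM (SD, n = 2) in pTKO and 26.8 ± 7.97 in pWT (log2 fold change 2.35, adjusted p = 0.0172, edgeR). Of 13 Bcl2 family genes 0 rose and 3 fell, with Bad at 23.7 ± 1.07 CPM against 42.6 ± 1.54 (-0.92, adjusted p = 0.0197, edgeR). Of 24 cell cycle genes 3 rose and 4 fell, so the list moved both ways: Cenpf was at 126 ± 6.86 CPM against 15.6 ± 4.15 and Cdc20 at 107 ± 1.87 against 173 ± 2.41. The calls of Mdm4, Bad, Cenpf and Cdc20 were all lost without pTKO 1 or pTKO 2 (adjusted p up to 0.128, edgeR).

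In brain 1 of the 10 genes was called, beside 1.75% of all genes. Trp53inp1 was at 50.5 and 48.7 CPM in pWT and 37.9 and 37.4 in pTKO, a log2 fold change of -0.41 ± 0.09 (adjusted p = 0.0404, edgeR). The call was lost without pWT 1 (adjusted p = 0.168) or pWT 2 (0.0931), with the length trend taken out (0.0745, edgeR) and with all tissues in one fit. The other 9 lay between -0.11 and 0.58 on the log2 scale. Perp, the highest, was at 5.32 and 6.26 CPM in pWT and 6.58 and 10.7 in pTKO (adjusted p = 0.261, edgeR, and 0.0303 without pTKO 1).

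In kidney, liver and lung 0 of the 10 genes were called, and 0%, 0% and 0% of all genes (edgeR). At an unadjusted p of 0.05 there were 2374, 642 and 488 of all genes and 2, 1 and 1 of the members, and DESeq2 called 353, 60 and 13 genes of the whole table. In each of these tissues 1 library stood far from its pair. Kidney pWT 2 had Trp53inp1 at 4.07 CPM and Ccng1 at 16.0, against 33.2 and 57.9 in pWT 1, 42.4 and 59.5 in pTKO 1 and 40.0 and 58.8 in pTKO 2. Liver pWT 2 had them at 4.30 and 5.45 CPM, against 29.1 and 24.2 in pWT 1, 41.6 and 26.8 in pTKO 1 and 66.0 and 27.2 in pTKO 2. Lung pTKO 1 had them at 38.4 and 24.7 CPM, against 87.9 and 60.0 in pTKO 2, and 92.7 and 57.0 or 97.0 and 66.2 in pWT.

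The count of calls therefore turned on which library was left out. Without kidney pWT 1, 6 of the 10 were called, beside 5327 of the 17211 genes tested. Without kidney pWT 2 the one called was Sesn2 (-0.85, adjusted p = 0.00704, edgeR), beside 945 of all genes (5.51%). Sesn2 was at 35.8 and 32.1 CPM in kidney pWT and 18.54 and 22.3 in pTKO, so its groups did not overlap in either case. Without liver pWT 1, 7 were called, beside 7191 of all genes (46.4%). Without liver pWT 2, 2 were called, beside 458 of all genes (2.97%): Cdkn1a (-0.82, adjusted p = 0.0106) and Trp53inp1 (0.79, adjusted p = 0.0403, edgeR). Without lung pTKO 2, 7 were called, beside 7876 of all genes (47.9%). Without lung pTKO 1, 2 were called, beside 836 of all genes (5.11%): Cdkn1a (1.13, adjusted p = 0.000733) and Zmat3 (-0.61, adjusted p = 0.0396, edgeR). Cdkn1a was at 43.0 and 44.6 CPM in liver pWT and 28.2 and 23.8 in pTKO, and at 30.8 and 29.2 in lung pWT and 26.6 and 63.3 in pTKO. The pTKO effect did not pass a test of difference between the 5 tissues for any of the 10 genes (adjusted p of at least 0.194, edgeR), and 0.0106% of all genes did. In that test 3878 of all genes had an unadjusted p under 0.05, with Cdkn1a, Bax and Phlda3 among the members, and DESeq2 called 2652 genes and 0 members.

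**Figure D3:**
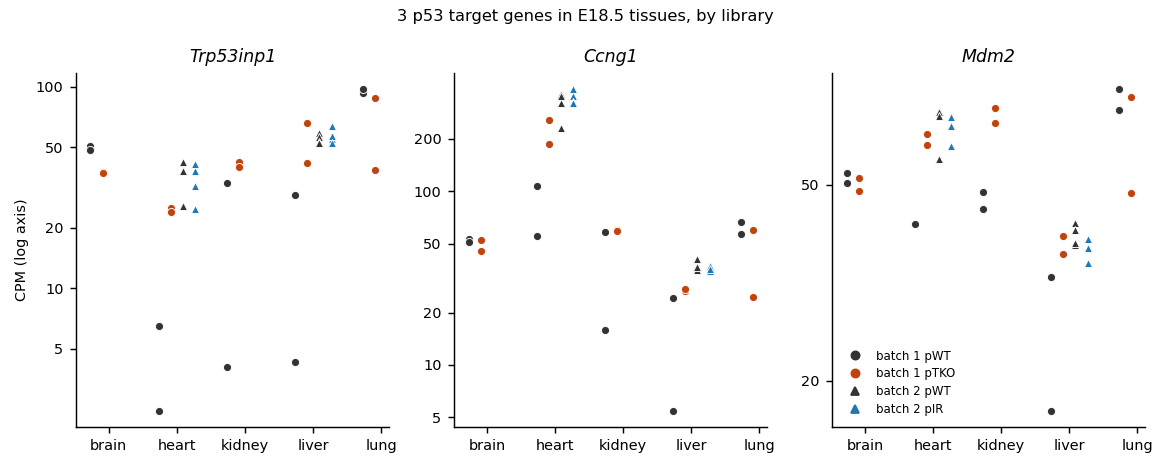
CPM of Trp53inp1, Ccng1 and Mdm2 in E18.5 tissues on log axes, one point per library, with batch 1 pWT and pTKO as circles and batch 2 pWT and pIR as triangles. The lowest Trp53inp1 points are the batch 1 pWT hearts at 6.48 and 2.47 CPM, kidney pWT 2 at 4.07 and liver pWT 2 at 4.30.

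In the pIR hearts and livers of E18.5 batch 2, 0 of the 10 genes were called, with 0.0137% and 0% of all genes called (edgeR). Over all genes 863 and 813 had an unadjusted p under 0.05, 0 of them members, and DESeq2 called 0 members in each. Log2 fold changes ran from -0.25 to 0.15 in heart (SE 0.07 to 0.26) and from -0.15 to 0.14 in liver (SE 0.06 to 0.21). Cdkn1a was at 41.3, 38.2, 40.4 and 38.4 CPM in pWT hearts and 34.9, 39.9, 43.8 and 41.8 in pIR hearts. In liver it was at 40.8, 47.0, 50.1 and 32.4 CPM in pWT and 36.9, 44.4, 33.4 and 38.9 in pIR. The 2 groups overlapped in both tissues, and 0 of the 10 genes had groups that did not overlap in heart or liver, against 3.74% and 3.23% of all genes. In a test of difference of the pIR effect between liver and heart 0 of the 10 passed (adjusted p of at least 0.911, edgeR), beside 0.00622% of all genes, with 848 of all genes under an unadjusted p of 0.05 and 0 members called by DESeq2.

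At P1 the liver gave the most calls among the 10 genes, with 3 higher and 3 lower in pIR, beside 39.2% of all genes called (edgeR). Perp was at 31.8, 33.7 and 32.4 CPM in pWT and 58.6 and 68.1 in pIR. Zmat3 was at 5.95, 3.99 and 5.90 CPM in pWT and 8.49 and 7.85 in pIR. In both genes the pIR livers were above all pWT livers. Perp rose by 1.30 ± 0.14 on the log2 scale (adjusted p = 2.14e-05, edgeR) and Zmat3 by 0.97 ± 0.23 (adjusted p = 0.00581, edgeR).

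The apoptosis gene Bbc3 was at 19.2, 13.7 and 18.2 CPM in pWT livers and 5.43 and 4.51 in pIR livers. Mdm2 was at 63.6, 61.1 and 63.9 CPM in pWT and 31.6 and 33.0 in pIR. Neither overlapped, with pIR below pWT, and the share of all genes that did not overlap in liver is not given. Bbc3 had a log2 fold change of -1.43 ± 0.21 (adjusted p = 0.000227, edgeR), and Mdm2 had a log2 fold change of -0.62 ± 0.13 (adjusted p = 0.00263, edgeR). The calls of Perp, Zmat3, Bbc3 and Mdm2 were kept with any 1 library left out and in all 6 other settings tried.

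Bax was at 39.1, 28.2 and 32.6 CPM in pWT livers and 21.3 and 15.4 in pIR (-0.52 ± 0.17, adjusted p = 0.032, edgeR). The Bax call was lost without pIR 2, pWT 1 or pWT 3 (adjusted p = 0.214, 0.12 and 0.0771, edgeR). Cdkn1a was at 29.3, 17.1 and 10.6 CPM in pWT and 34.0 and 25.7 in pIR, so its groups overlapped in CPM. It rose by 1.00 ± 0.29 on the TMM scale (adjusted p = 0.0176, edgeR), a call lost without pIR 1 (adjusted p = 0.12) and with DESeq2 (0.119).

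The other 4 genes did not pass the test in P1 liver. Trp53inp1 was at 39.2, 39.7 and 37.0 CPM in pWT and 16.3 and 27.1 in pIR (-0.48 ± 0.20, adjusted p = 0.0744, edgeR), and without pIR 2, the higher of the pIR livers, it was called (adjusted p = 0.0019). Ccng1 was at 21.9, 19.2 and 20.2 CPM in pWT and 9.39 and 13.7 in pIR (-0.47 ± 0.19, adjusted p = 0.0721, edgeR). Phlda3 had a log2 fold change of -0.70 ± 0.32. Sesn2 was at 16.8, 19.7 and 15.9 CPM in pWT and 16.4 and 12.1 in pIR, and at 0.04 ± 0.18 on the TMM scale.

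Markers of cell types differed between these livers. Summed liver markers (Alb, Apoa1, Ttr, Afp, Serpina1a) were at 36901 to 45944 CPM in pWT and 93798 to 105816 in pIR, and macrophage and neutrophil markers at 2191 to 3326 and 1405 to 1578. The share of counts on ribosomal protein genes was 4.58 to 5.48% in pWT and 2.90 to 2.98% in pIR. The part of these differences in the results was not tested.

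The wider lists in P1 liver moved in both directions, except the cell cycle genes. Their counts stand beside 39.2% of all genes called. Of 26 tested other targets 4 rose and 8 fell, and 9 to 13 were called with 1 library left out. Aen, a nuclease, was at 15.0 ± 1.79 CPM (SD, n = 3) in pWT and 21.2 ± 2.66 (n = 2) in pIR (log2 fold change 0.83, adjusted p = 0.00165, edgeR). Gadd45a, a stress sensor, was at 84.8 ± 17.1 CPM in pWT and 31.7 ± 1.26 in pIR (-1.08, adjusted p = 0.000378, edgeR). Of 17 regulators 1 rose and 9 fell, with the checkpoint kinase Chek2 at 53.9 ± 5.71 CPM in pWT and 17.3 ± 3.11 in pIR (-1.30, adjusted p = 5.47e-05, edgeR). Of 24 cell cycle genes 0 rose and 19 fell, with a median log2 fold change of -0.86 beside -0.03 over all genes. Mki67, the proliferation marker, was at 236 ± 30.5 CPM in pWT and 56.4 ± 7.69 in pIR (-1.72, adjusted p = 1.39e-05, edgeR). These 4 named genes kept their calls with any 1 library left out.

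In P1 kidney 1 of the 10 genes rose and 2 fell, beside 10.6% of all genes called. Cdkn1a was at 50.3, 46.3 and 36.9 CPM in pWT and 76.4 and 68.6 in pIR (0.75 ± 0.15, adjusted p = 0.0216, edgeR). Phlda3 was at 27.9, 32.5 and 30.2 CPM in pWT and 17.6 and 18.4 in pIR (-0.70 ± 0.14, adjusted p = 0.0222, edgeR). Bax was at 53.3, 60.0 and 52.5 CPM in pWT and 37.8 and 35.5 in pIR (-0.55 ± 0.12, adjusted p = 0.0307, edgeR). None of the 3 overlapped between the groups, and the share of all genes that did not overlap in kidney is not given.

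These 3 kidney calls were all lost without pIR 1 (adjusted p = 0.112 for Cdkn1a, 0.106 for Phlda3 and 0.102 for Bax, edgeR) or without pWT 1 (0.0643, 0.0797 and 0.111). Bax was also lost without pIR 2 (0.0667) or pWT 2 (0.0704), and Cdkn1a with all tissues in one fit (0.0909). Ribosomal protein genes took 5.98 to 6.63% of counts in pWT kidneys and 4.25 to 4.80% in pIR, and the part of this difference was not tested.

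In P1 heart and lung 0 of the 10 genes were called, beside 2.32% and 2.60% of all genes (edgeR). At an unadjusted p of 0.05 there were 3733 and 3198 of all genes, with Cdkn1a, Bax and Zmat3 among the members in heart and Cdkn1a, Trp53inp1 and Perp in lung. DESeq2 called 0 members in heart and Perp in lung (adjusted p = 0.0356). Cdkn1a was at 40.6, 35.1 and 29.2 CPM in pWT hearts and 26.6 and 25.4 in pIR hearts (-0.52 ± 0.17, adjusted p = 0.123, edgeR). In lung it was at 149, 90.7 and 91.9 CPM in pWT and 60.0 and 83.7 in pIR (-0.66 ± 0.25, adjusted p = 0.185, edgeR). In lung Perp was at 77.9, 57.8 and 62.6 CPM in pWT and 37.5 and 52.9 in pIR, and Trp53inp1 at 127, 93.8 and 107 against 81.0 and 84.5 (adjusted p = 0.125 and 0.133, edgeR). Neither overlapped between the groups, and the share of all genes that did not overlap in lung is not given. The pIR values of Cdkn1a lay below pWT in heart and lung without passing the test, and above it in kidney.

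The pIR effect differed between the 4 P1 tissues for 5 of the 10 genes by a joint interaction test, beside 25.3% of all genes. They were Perp (adjusted p = 0.000816), Bbc3 (0.000884), Cdkn1a (0.00907), Zmat3 (0.013) and Mdm2 (0.0266, edgeR). That test treats the tissues as independent, though they may share animals, which the labels do not give. Perp had log2 fold changes of 0.22 in heart, 0.14 in kidney, 1.30 in liver and -0.59 in lung. Bbc3 was at 0.29, -0.27, -1.43 and -0.17 in the same order, and Cdkn1a at -0.52, 0.75, 1.00 and -0.66.

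**Figure D4:**
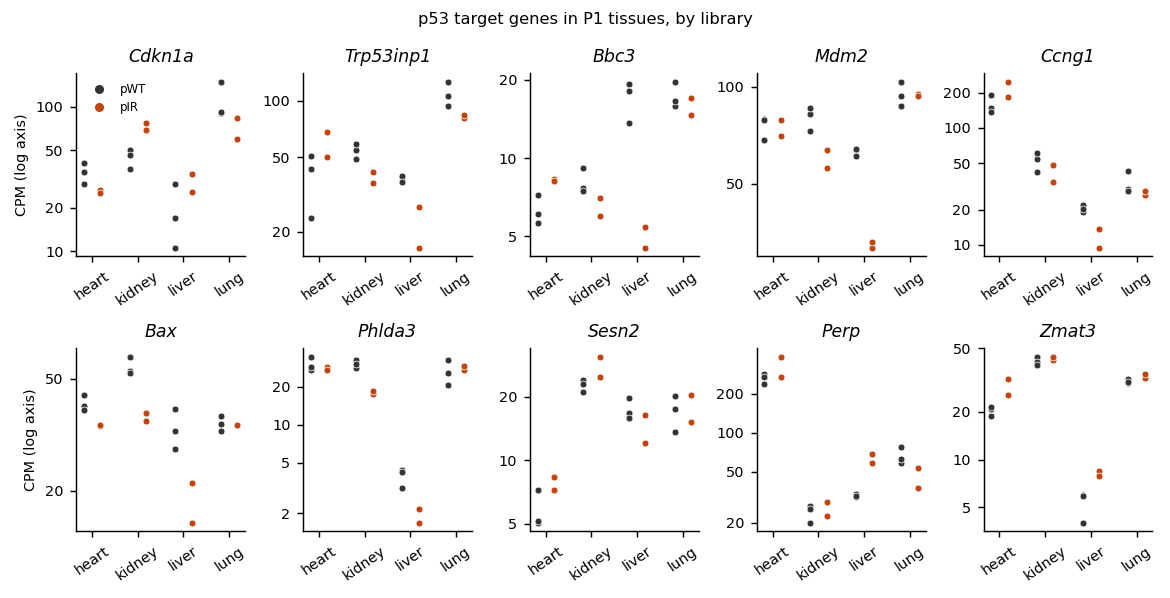
CPM of the 10 genes in P1 heart, kidney, liver and lung on log axes, one point per library, pWT (n = 3) beside pIR (n = 2). In liver the pIR points of Perp and Zmat3 lie above all pWT points and those of Bbc3, Mdm2 and Bax below them.

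**Figure D5:**
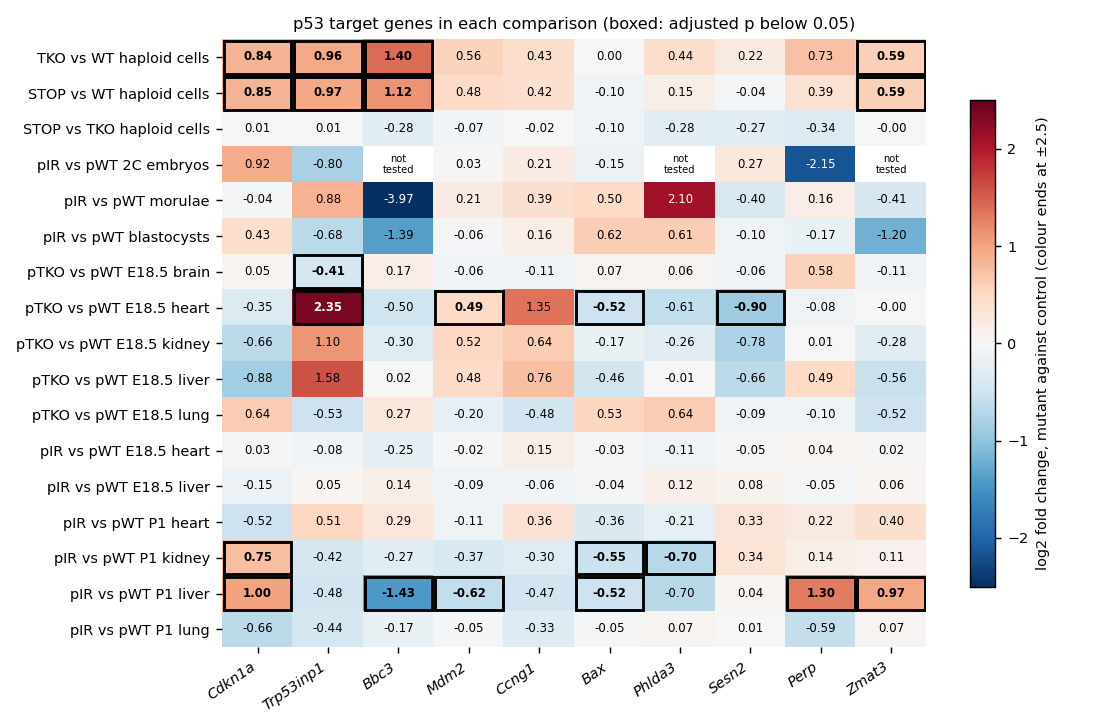
Fitted log2 fold change of each gene (columns) in each of the 17 comparisons (rows), red where the mutant was higher and blue where it was lower, with a box where the adjusted p was under 0.05. Cdkn1a, Trp53inp1, Bbc3 and Zmat3 are boxed in both haploid comparisons, and 0 genes are boxed in the embryos or in the E18.5 pIR tissues. Perp in the 2C embryos and Bbc3 in the morulae rest on few counts.

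Levels in the 15 control groups set these differences in context. Per kilobase of exon, Ccng1 was the most abundant of the 10 in the WT haploid cells (60.3 CPM per kb), followed by Bax (41.5), Trp53inp1 (35.1) and Cdkn1a (32.2), with Perp (2.59) and Bbc3 (1.79) lowest. Mdm2 varied least, its highest control mean being 4.1 times its lowest. No such ratio is given for Phlda3, since in the pWT 2C embryos it was detected in 1 of 4 libraries. Perp was highest in heart, at 265 ± 24.1 CPM (SD, n = 3) at P1 and 238 ± 40.8 (n = 4) and 233 ± 15.6 (n = 2) at E18.5, groups whose ranges overlap. It was lowest in the WT haploid cells (5.06 ± 0.552, n = 3) and in brain (5.79 ± 0.665, n = 2). Zmat3 and Sesn2 were highest in the haploid cells, at 108 ± 6.63 and 58.8 ± 3.67 CPM, above every other control group mean.

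Cdkn1a was highest in pWT morulae, at 188 ± 184.6 CPM (n = 3), a mean set by 1 library, then in WT haploid cells (115 ± 13.3) and P1 lung (110 ± 33.1), and lowest in P1 liver (18.99 ± 9.53). The first of these do not differ beyond their spread. Trp53inp1 was highest in 2C embryos (306 ± 95.95, n = 4) and WT haploid cells (228 ± 22.7) and lowest in the batch 1 pWT hearts (4.48 ± 2.84). These levels span batches and possibly kits, and were not tested.

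Across the 31 group means of log2(CPM + 1), the genes whose pattern was most like that of Cdkn1a were Gk5 (r = 0.839), Mir3063 (0.835), Ncoa3 (0.834), Trim71 (0.827) and Sde2 (0.827), among 13875 genes with a mean of at least 5 CPM. The genes most like the mean of the 10 were Plekhh1 (0.911), Gab1 (0.908), Pkn3 (0.908), 1810030O07Rik (0.898) and Tnfrsf10b (0.897). Among the 10 genes themselves the closest pair was Trp53inp1 with Mdm2 (r = 0.73) and the most opposed was Trp53inp1 with Perp (-0.53). These correlations are descriptions over 31 groups that share batches and depth.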

How the data were processed

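RNA from mouse haploid cells, embryos and tissues was sequenced as 150-base paired ends, per the labels' protocols, after poly(A) selection or a low-input kit, with the kit of each library not stated. The authors deposited whole-number read counts per gene. Per the submitters' processing notes, Trim Galore 0.6.6, HISAT2 2.1.0, featureCounts 1.6.4, DESeq2 and the mm10 genome were used. Strand and the handling of reads with several matches are not given in the sources used here.

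Groups came from the labels, except that 11 columns named O48 were matched to the pWT embryos by elimination. A further 3 unnamed, empty columns and 0 other value columns were left out. Levels are CPM of the library total. Differences were fitted with edgeR 4.0.16 (R 4.3.3, limma 3.58.1): filterByExpr with a minimum count of 10, TMM scaling, the quasi-likelihood F test and Benjamini-Hochberg adjustment over all genes, with a threshold of 0.05. SE is the absolute log2 fold change over the square root of F. The 3 haploid groups shared 1 fit, each other comparison held only its own groups, and tests between tissues or stages held all groups they name. The labels do not say whether tissues came from the same animals, and tests between tissues had no term for the animal. Adjusted p-values in the text are from this test unless DESeq2 (1.42.0) is named. The scripts were tested on simulated data.

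Alternatives were DESeq2, median-of-ratios scaling, no filter, a replicate block, a larger or smaller set of libraries in the fit, and single libraries left out in turn. Removing a trend over 25 bins of transcript length, and removing chromosome medians, were added after the data were seen. The 10 genes and the pathway and marker lists were chosen with earlier results of these data known. Named genes were the 10 members, then examples from the called genes of each list, drawn from the 4 with the smallest p, and for likeness the 5 other genes with the highest Pearson correlation to Cdkn1a or to the mean of the 10. No 2 libraries agreed within sampling noise: the lowest chi-square per degree of freedom between replicates was 3.54. CPM upper limits for a count of 0 are 3 counts per library and cover counting error only. The sums of 2 marker lists are not reported here.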

Additional observations from a re-analysis of the deposited data

Results flagged for a closer look

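Single libraries stood away from the rest of their group in 13 of 90 combinations of gene and group of 4 libraries. The gap was over 0.829 of the group's range (Dixon's test), which independent normal values pass about 1 time in 20. Some of these CPM values are at or near 0 and the genes share libraries, so the observed rate cannot be set against that one. In morulae pIR 1 was highest for Trp53inp1 (153 CPM, others 19.9 to 37.9) and Phlda3 (37.4, others 9.70 to 11.4). In blastocysts pIR 3 was highest for Cdkn1a (149 CPM, others 89.4 to 99.1), pWT 4 for Mdm2 (117, others 69.8 to 75.5), pWT 3 was lowest for Bbc3 (0.828, others 3.86 to 4.16) and pIR 2 for Sesn2 (3.07, others 6.39 to 6.83). In 2C embryos the pWT libraries with a level apart were pWT 3 for Bbc3 (2.29 CPM, others 0 to 0.335), pWT 1 for Phlda3 (0.735, others 0) and pWT 2 for Zmat3 (14.02, others 0). In E18.5 batch 2 hearts pWT 1 was lowest for Mdm2 (56.3 CPM, others 68.7 to 70.5) and highest for Sesn2 (6.89, others 4.98 to 5.31), and pIR 1 was highest for Bax (21.7, others 19.8 to 20.1). In batch 2 livers pWT 3 was highest for Zmat3 (7.07 CPM, others 5.06 to 5.14).

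The pIR effect differed between the P1 tissues by an interaction test for Cdkn1a (adjusted p = 0.00907), Bbc3 (0.000884), Mdm2 (0.0266), Perp (0.000816) and Zmat3 (0.013, edgeR), beside 25.3% of all genes.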

How the results depend on the processing

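Values under other settings were taken for members called in at least 1 setting of the comparison. They were also taken for list genes called in the edgeR test with all libraries, up to 4 per list. Such list genes can lose a call but not gain one. Of these 1515 values, 1166 kept their direction and their side of the threshold, 289 lost a call, 56 gained one and 4 turned direction. Those 4 were log2 fold changes of E18.5 pTKO fits without 1 library. Over the libraries left out they ran from -0.013 (without pWT 2) to 1.83 for Ccng1 in kidney, and in lung from -0.12 (without pTKO 2) to 1.13 for Cdkn1a. In lung they also ran from -0.57 to 0.078 for Mdm2 and from -1.26 to 0.019 for Ccng1, both highest without pTKO 1. Genes called in no setting are not among the 1515 values. One of them, Trp53inp1 in morulae, also turned (0.88, and -0.11 without pIR 1). The number of the 10 genes called moved by over 1.5 times, or from 0, in these comparisons. With DESeq2 it was 1 in morulae, 2 in blastocysts, 0 in brain and 1 in P1 lung, and among smaller moves it was 5 in TKO, 6 in pTKO heart, 4 in P1 kidney and 5 in P1 liver. With the replicate block it was 1 in blastocysts (Trp53inp1, adjusted p = 0.0455, edgeR), 0 in brain and 2 in pTKO heart, where Mdm2 was lost (adjusted p = 0.0609, edgeR). With all tissues in one fit it was 0 in brain and 1 in pTKO heart. With the length trend removed it was 0 in brain and 2 in pTKO heart, and with chromosome medians removed 1 in blastocysts (Bax). With only the groups compared in the fit it was, within 1.5 times, 6 in STOP against WT, with Mdm2 and Ccng1 added. Shares of all genes called under these settings are not given beside these counts. The counts therefore cannot be set against the whole table.

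With 1 library left out the number called ran from 3 to 7 in TKO, 1 to 3 in STOP, 0 to 1 in blastocysts, 0 to 2 in brain and 0 to 5 in pTKO heart. It ran from 0 to 6 in kidney and 0 to 7 in liver and in lung of pTKO, 0 to 3 in P1 kidney and 5 to 7 in P1 liver. It was 0 throughout in STOP against TKO, 2C embryos, morulae, the E18.5 pIR tissues, P1 heart and P1 lung. Over all genes the number called then ran from 574 to 6968 in TKO, 124 to 1228 in STOP, 4 to 10 in STOP against TKO, 0 to 8 in morulae and 229 to 1520 in blastocysts, and it was 0 in 2C embryos. In pTKO tissues it ran from 155 to 687 in brain, and from 0 to 5266 in heart, 5327 in kidney, 7191 in liver and 7876 in lung. In pIR tissues it ran from 0 to 3 in E18.5 heart, 0 to 2 in E18.5 liver, 5 to 1162 in P1 heart, 150 to 2219 in P1 kidney, 4325 to 5139 in P1 liver and 18 to 346 in P1 lung. Where 1 library was left in a group, it is assumed to vary like the other groups.

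With 3 or more pairs, no comparison had every correlation of same-numbered libraries over 0.1, the values running from -0.33 to 0.25. With 2 pairs they were 0.16 to 0.21 in STOP against WT, 0.21 in pTKO lung and 0.21 to 0.22 in P1 lung. There each mutant library correlated best with the control of its own number, as did 2 of 3 in TKO against WT. Deviations of 2 libraries from their mean mirror each other, so in groups of 2 these matches are not separate results. In the other comparisons with 2 pairs the correlations ran from -0.24 to 0.16. The libraries share only a number, and outside blastocysts, brain and pTKO heart the replicate block kept the number of calls within 1.5 times. At the 2C stage 3 of the 10 genes were too low to be tested.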
